A study of Mus musculus with 26 samples.

Results

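The genes described here are 36 genes of apoptosis and the p53 response, followed in the testes of mice that carry binding sites for a piRNA in the *Ythdc2* mRNA. They were chosen by name as known members of the pathway, with earlier results of these data known. All 36 are protein-coding genes among the 51124 genes of the table. The libraries hold total RNA from whole testes, depleted of ribosomal RNA, of 3 genotypes with 2 libraries each. They are wild type (WT, libraries N1 and N2), *10xPerf* (N3 and N4) and *10xBulge* (N5 and N6). Both knock-in alleles carry 10 sites for piR-A, a pachytene piRNA of high abundance, within the last exon of *Ythdc2* (3′UTR), a gene that codes for an RNA helicase that germ cells need for meiosis. The sites of *10xPerf* pair perfectly with piR-A, and those of *10xBulge* carry mismatches opposite positions 10 and 11 of the piRNA, where PIWI proteins cut. Both lines were made with Cas9 in embryos of the hybrid line B6D2F1/J, and the mice were adult. The lines were bred as homozygotes, but the zygosity of the mice sequenced here and the background of the wild-type mice are not given in the sources used here. The labels name a different mouse for each library.

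Apoptosis removes many germ cells in the normal testis, mainly during the first wave of spermatogenesis and at meiotic checkpoints. In the mitochondrial branch, BH3-only proteins sense damage or loss of survival signals and bind the antiapoptotic BCL2 proteins. BAX and BAK then permeabilise the outer mitochondrial membrane, released cytochrome c assembles APAF1 into the apoptosome, and caspase 9 activates the executioner caspases. Death receptors such as FAS reach the same executioners through caspase 8, and p53 drives the transcription of genes in both branches.

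Values are normalized read counts per gene. Approximate depth was 41.1 to 61.6 M reads per library, so that 3 reads are worth 2.73 to 3.63 normalized counts, depending on the library. All 36 genes passed the filter (10 or more normalized counts in 2 or more libraries), as did 23782 genes in all. Log2(value + 1) was fitted with limma over all 6 libraries, and "rose" and "fell" are used for an adjusted p under 0.1. Log2 fold changes refer to this scale, on which changes of low genes come out too small. SE is the standard error. For 2 libraries per genotype the smallest p of an exact permutation test is 0.333. The table holds *Bcl2l2*, *Bax* and *Diablo* beside annotated genes whose exons overlap theirs on the same strand, and how reads were split between these could affect their values. The largest such partner in the libraries was *Gm20521*, which overlaps *Bcl2l2* over 594 bases and had 21.2 to 111 normalized counts.

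In *10xBulge* testes, 10 of the 36 genes rose against wild type (27.8%) and 2 fell (5.56%). Over all genes tested, 11.4% rose and 23.0% fell. The genes that rose were *Ccng1*, *Bcl2l2*, *Mcl1*, *Pmaip1*, *Casp8*, *Apaf1*, *Casp6*, *Xiap*, *Birc3* and *Aifm1*, and those that fell were *Bcl2l14* and *Bcl2l11*. The median log2 fold change of the 36 genes was 0.78, against -0.026 over all genes tested, and 27 of the 36 values were positive. The background depends on the filter. With 10 normalized counts required in every library, the median was 0.76 for the members still tested and 0.15 over all genes. Of all 18064 genes then tested, 2599 were higher and 2926 lower. Both *10xBulge* libraries lay above both wild-type libraries for 22 genes (61.1%), against 28.9% of all genes tested, and below both for 5 (13.9%), against 33.2%. In *10xPerf*, 0 of the 36 genes passed the threshold against wild type (limma), with 2 at an unadjusted p under 0.05. Over all genes tested, 0.467% rose and 0.492% fell in *10xPerf*. Whole-testis RNA cannot tell fewer cells of a type from less RNA per cell.

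The calls of higher genes were sensitive to the libraries used, most of all to wild-type library N1. Over all 36 genes, N1 was the lowest library for 12, and a low wild-type value itself favours a call of higher. This library was the lowest of all 6 for 9 of the 10 genes that rose, and without it 0 of the 36 genes rose, while *Bcl2l14* and *Bcl2l11* still fell. Calls were lost over all genes too, with 636 of 23782 higher without N1 and 2712 with it. The log2 fold changes of the 10 genes stayed positive without N1, from 0.76 for *Ccng1* to 1.34 for *Aifm1*. The 10 genes had a median GC content of 46.6% in their longest transcripts, against 51.8% for the other 26 genes. Removing each library's trend with GC content raised the number of higher genes to 18, as did scaling by library totals. Over all genes, 4736 of 23614 and 5777 of 23782 were higher under these settings.

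**Figure D1:**
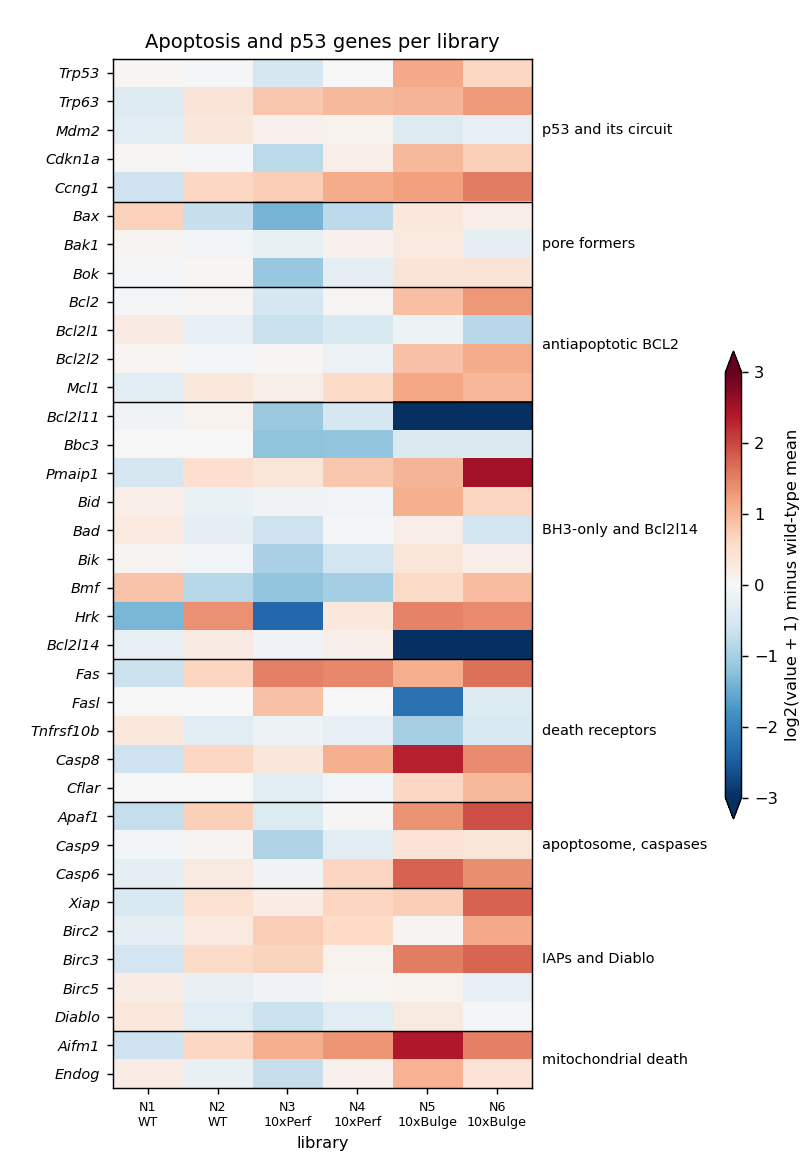
Colour gives log2(value + 1) minus the mean of both wild-type libraries, for 36 genes (rows, by role) in 6 libraries (columns), cut at -3 and 3. *Bcl2l11* and *Bcl2l14* are the darkest blue in N5 and N6, and most other rows are red there.

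The RNA of cell types changed with the genotype as well. The summed normalized counts of 12 genes listed as spermatid markers were 643255 to 847934 in wild type and 762197 to 862318 in *10xPerf*. In *10xBulge* they were 61371 to 82770, where 11 of the 12 fell and *Ldhc* did not pass the threshold (log2 fold change -0.05). *Ldhc* alone had 79447 and 59873 normalized counts in N5 and N6. It made up most of the *10xBulge* sums, which therefore understate the fall of the other 11. Sums of the 10 Sertoli cell markers were 80981 to 81607 in wild type, 57374 to 80407 in *10xPerf* and 125851 to 269888 in *10xBulge*, where 6 rose. Of 7 Leydig cell markers 5 rose in *10xBulge*, and their sum was 139525 to 292433 against 50515 to 71980 in wild type and 44154 to 77843 in *10xPerf*. Of 8 macrophage markers 6 rose, with sums of 10139 to 14941 in *10xBulge*, 4012 to 5056 in wild type and 4220 to 6551 in *10xPerf*. Spermatocyte markers overlapped between the genotypes in their sums (57607 to 74150 in wild type, 68077 to 72975 in *10xPerf* and 67751 to 77038 in *10xBulge*), and 1 of 12, *Dmc1*, rose. Both *10xBulge* libraries were above both of wild type for 3 of the 12 and below both for 1, *Ccna1*. Among 10 markers of spermatogonia *Kit* rose and *Nanos3* fell, with sums of 16909 to 20609 in wild type, 13492 to 20032 in *10xPerf* and 31659 to 44619 in *10xBulge*. Of 8 peritubular and vascular markers 2 rose (*Pdgfra* and *Col1a1*), with sums of 9287 to 10865, 7447 to 11170 and 14532 to 31683 in the same order. Of 8 genes listed for T and NK cells 5 could be tested and 2 rose, *Trac* and *Ptprc*, of which *Ptprc* is not particular to these cells. The sums were 203 to 219, 193 to 232 and 588 to 592. *Cd3g*, *Nkg7* and *Gzma* were at 0 in at least 1 library. In *10xPerf* 0 markers of any list passed the threshold. Sums mostly follow the largest genes of a list. In N5 these were *Clu* for Sertoli cells (196126) and *Piwil1* for spermatocytes (35738), and in N6 *Dazl* for spermatogonia (27823). The part of these cell types in the values of the apoptosis genes was not tested.

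**Figure D2:**
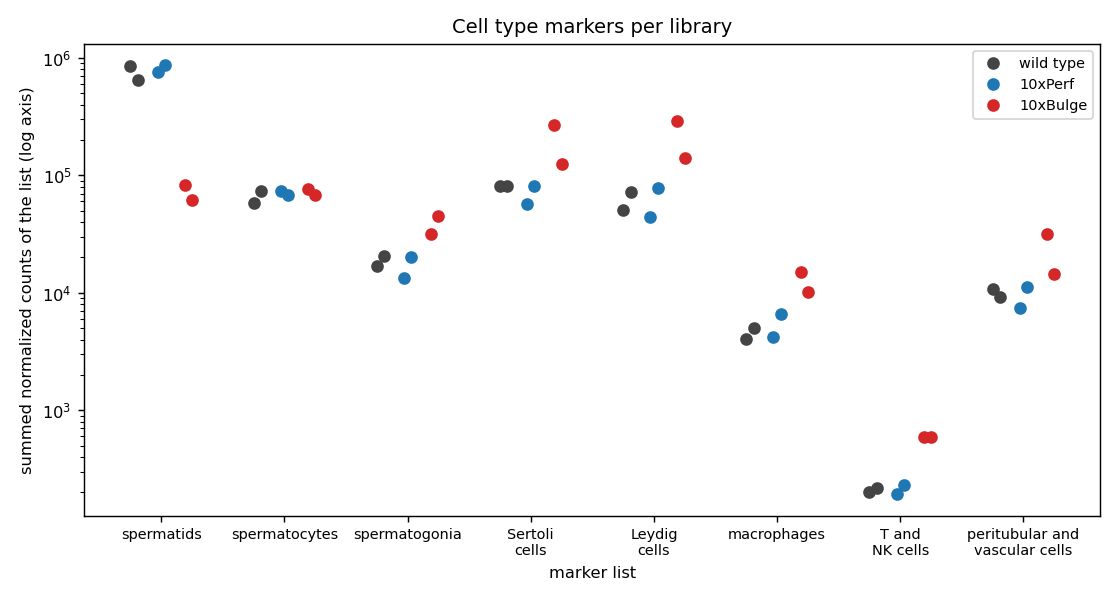
Each point is the sum of normalized counts over a marker list in 1 library, on a log axis, by genotype. Spermatid sums of *10xBulge*, which are mostly *Ldhc*, lie below those of the other genotypes. Its sums of Sertoli cell, Leydig cell and macrophage markers lie above.

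Among the p53 genes, *Ccng1* rose in *10xBulge*, and the others did not pass the threshold against wild type. *Trp53*, the p53 transcription factor itself, had 1317 and 1227 normalized counts for wild type (N1 and N2, in that order here and for all genes), 896 and 1284 for *10xPerf* (N3 and N4) and 2801 and 1944 for *10xBulge* (N5 and N6). Both *10xBulge* libraries were above all others, with a log2 fold change from wild type of 0.88 (95% confidence interval -0.03 to 1.78, limma adjusted p = 0.143). Against *10xPerf* it was 1.12 and passed (limma, SE 0.40, adjusted p = 0.0668). *Cdkn1a*, the p21 inhibitor of cyclin-dependent kinases and a classical p53 target, had 936 and 888 for wild type, 521 and 1043 for *10xPerf* and 1802 and 1487 for *10xBulge*. Both *10xBulge* libraries were again above all others, with a log2 fold change of 0.84 against wild type (95% confidence interval -0.15 to 1.83, limma adjusted p = 0.190) and 1.15 against *10xPerf* (SE 0.44, limma adjusted p = 0.0813). *Ccng1*, the p53 target that codes for cyclin G1, had 323 and 761 normalized counts for wild type, 823 and 1081 for *10xPerf* and 1167 and 1428 for *10xBulge*. The wild-type libraries differed most, N1 being the lowest, and the log2 fold change was 1.38 in *10xBulge* (SE 0.48, limma adjusted p = 0.0654) and 0.93 in *10xPerf* (limma adjusted p = 0.853). *Mdm2*, the ubiquitin ligase that destroys p53 and is itself a p53 target, had 4124 and 6609 for wild type, 5717 and 5633 for *10xPerf* and 3950 and 4386 for *10xBulge*. Its *10xBulge* and wild-type values overlapped (log2 fold change -0.33, 95% confidence interval -1.23 to 0.58). *Trp63*, whose p63 protein is known as a guard of oocytes against damaged DNA, was low. It had 42.8 and 74.7 for wild type, 99.8 and 112 for *10xPerf* and 115 and 139 for *10xBulge*. Both knock-in lines lay above wild type for *Trp63*, and neither passed (limma adjusted p = 0.109 in *10xBulge* and 0.853 in *10xPerf*).

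The promoters of these genes were searched for the p53 consensus site, a pair of adjacent decamers, to show which of the genes carry the letters that p53 is known to bind. Windows from 250 bases before to 50 after each RefSeq transcript start (GRCm38.p6) were held for 32 of the 36 genes, in 45 windows. No window was held for *Bik*, *Trp63*, *Pmaip1* and *Tnfrsf10b*, which were therefore not searched. The search allowed 2 mismatches and no spacer, and kept the C and G of the core of each decamer fixed. As the consensus is its own reverse complement, this covers both strands. A pair was found in 2 of the 45 windows (4.44%), against 107 of 32851 windows of all genes (0.326%). Both are shown 5′ to 3′ with the pair in capitals and 5 bases on each side, and each has 1 mismatch. The pair of *Ccng1* begins 195 bases before the transcript start, and the stretch shown, with its flanks, is chr11:40755457-40755486 on the minus strand. That of *Cdkn1a* begins 51 bases before the start in 1 of its 2 windows, and the stretch shown is chr17:29090923-29090952 on the plus strand.
Ccng1: aggccAGACCTGCCCGGGCAAGCCTtggca
Cdkn1a: ttcagGAACATGTCTTGACATGTTCagccc
*Ccng1* rose against wild type and *Cdkn1a* did not pass, as given above. A match is a description of letters in this window, and p53 sites further away were not searched. The genes were chosen as known members of the pathway, p53 targets among them, so the contrast of shares tests nothing. It also rests on 2 windows.

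None of the 3 pore-forming genes passed the threshold against wild type. *Bax* had 1049 and 401 normalized counts for wild type, 247 and 374 for *10xPerf* and 806 and 742 for *10xBulge*. The *10xBulge* values fell between those of both wild-type libraries, and both *10xPerf* values were below both of wild type (log2 fold change -1.09 in *10xPerf*, SE 0.52, limma adjusted p = 0.853). *Bak1* had 1217 and 1101 for wild type, 985 and 1274 for *10xPerf* and 1430 and 968 for *10xBulge*, with overlap among all genotypes. *Bok*, a BAX relative that does not depend on the other BCL2 proteins in the same way, had 340 and 365 for wild type, 159 and 291 for *10xPerf* and 461 and 468 for *10xBulge*. Its log2 fold change against wild type in *10xBulge* was 0.40 (SE 0.43, 95% confidence interval -0.58 to 1.38, limma adjusted p = 0.540). Against *10xPerf*, *Bax* was higher in *10xBulge* by 1.34 on the log2 scale (limma adjusted p = 0.0821) and *Bok* by 1.11 (limma adjusted p = 0.0881).

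Of the 4 antiapoptotic genes, *Bcl2l2* and *Mcl1* rose in *10xBulge*. *Bcl2l2*, which codes for BCL-W and is needed for male fertility, had 937 and 877 normalized counts for wild type, 922 and 807 for *10xPerf* and 1662 and 1964 for *10xBulge*. Replicates lay close together, *10xBulge* stood above all others, and the log2 fold change was 0.99 (SE 0.37, limma adjusted p = 0.0811). The call of *Bcl2l2* was lost with only the 2 genotypes compared and without the mean-variance trend. *Mcl1*, a short-lived survival protein, had 2036 and 3144 for wild type, 2878 and 3783 for *10xPerf* and 5686 and 5025 for *10xBulge* (log2 fold change 1.08, SE 0.41, limma adjusted p = 0.0818). *Bcl2*, the founding member of the family, was low, with 81.3 and 86.8 for wild type, 59.1 and 86.5 for *10xPerf* and 157 and 207 for *10xBulge*. It was higher in both *10xBulge* libraries and missed the threshold against wild type (log2 fold change 1.09, limma adjusted p = 0.110), but passed against *10xPerf* (1.32, limma adjusted p = 0.0579). *Bcl2l1*, which codes for BCL-XL, had 9927 and 6947 for wild type, 5191 and 6094 for *10xPerf* and 7443 and 4659 for *10xBulge*. Its *10xBulge* values overlapped those of wild type, and the log2 fold change in *10xPerf* was -0.56 (SE 0.42, limma adjusted p = 0.853).

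The 2 genes that fell are *Bcl2l11*, a BH3-only gene, and *Bcl2l14*, a BCL2 relative listed here beside the BH3-only genes. *Bcl2l14* codes for BCL-G, a BCL2 family protein known for its abundance in testis, and lies on chromosome 6 from 134396318 to 134438736 (GRCm38, plus strand). It had 9018 and 12602 normalized counts for wild type, 9970 and 11967 for *10xPerf* and 125 and 65.0 for *10xBulge*. Wild type averaged 10810 ± 2535 (SD, n = 2), and *10xBulge* averaged 94.9 ± 42.4 (SD, n = 2). Its level was thus 117-fold lower on the fitted scale (log2 fold change -6.87, SE 0.44, limma adjusted p = 8.34e-06), while *10xPerf* overlapped wild type (log2 fold change 0.04). *Bcl2l11* codes for BIM, a BH3-only protein that acts together with BIK in the testis, and lies on chromosome 2 from 128126038 to 128162547 (GRCm38, plus strand). It had 3026 and 3504 normalized counts for wild type, 1505 and 2306 for *10xPerf* and 221 and 197 for *10xBulge*. The *10xBulge* libraries were 15.5-fold lower on the fitted scale (log2 fold change -3.96, SE 0.40, limma adjusted p = 7.68e-05). Both *10xPerf* libraries were also below both of wild type, but that difference did not pass (log2 fold change -0.81, 95% confidence interval -1.70 to 0.09, limma adjusted p = 0.853). Both genes fell against *10xPerf* too, by 6.91 and 3.15 on the log2 scale (limma adjusted p = 7.15e-06 and 0.000301). Both calls held under all 16 alternative settings.

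Of the other BH3-only genes, *Pmaip1* rose in *10xBulge*. *Pmaip1*, the p53 target that codes for NOXA, had 84.2 and 171 normalized counts for wild type, 154 and 212 for *10xPerf* and 246 and 692 for *10xBulge*. The *10xBulge* libraries differed widely but lay above the rest (log2 fold change 1.77, SE 0.59, limma adjusted p = 0.0550). *Bbc3*, the p53 target that codes for PUMA, had 160 and 161 for wild type, 69.3 and 70.1 for *10xPerf* and 118 and 118 for *10xBulge*. Replicates of *Bbc3* were the closest among the 36 genes by their widest gap, and all 3 genotypes stood apart, with wild type the highest. The value of *10xPerf* was one of the 2 with an unadjusted p under 0.05 (log2 fold change -1.19, SE 0.42), and did not pass after adjustment (limma adjusted p = 0.614). In *10xBulge* the log2 fold change of *Bbc3* was -0.44 (95% confidence interval -1.39 to 0.52).

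The remaining genes of the group did not pass against wild type. *Bid*, the link from caspase 8 to mitochondria, had 277 and 212 for wild type, 225 and 228 for *10xPerf* and 509 and 378 for *10xBulge* (log2 fold change 0.85, limma adjusted p = 0.158). *Bik* had 330 and 296 for wild type, 158 and 211 for *10xPerf* and 404 and 361 for *10xBulge*. *Bmf*, which is held at the cytoskeleton in healthy cells, had 331 and 99.1 for wild type, 78.8 and 89.6 for *10xPerf* and 273 and 347 for *10xBulge*. Against *10xPerf*, *Bmf* was higher in *10xBulge* by 1.86 (SE 0.58, limma adjusted p = 0.0413) and *Bik* by 1.06 (limma adjusted p = 0.0800). *Bad*, which growth factor signals silence by phosphorylation, had 3674 and 2458 for wild type, 1958 and 2895 for *10xPerf* and 3471 and 2006 for *10xBulge*, with overlap throughout. *Hrk* was at the limit of detection, with 0.960 and 12.3 normalized counts for wild type, 0 and 5.39 for *10xPerf* and 13.4 and 12.7 for *10xBulge*. N1 and N3 are below 3 reads for *Hrk*, and its replicates differed more than those of the other genes, by 2.76 on the log2 scale in wild type and 2.68 in *10xPerf*.

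**Figure D3:**
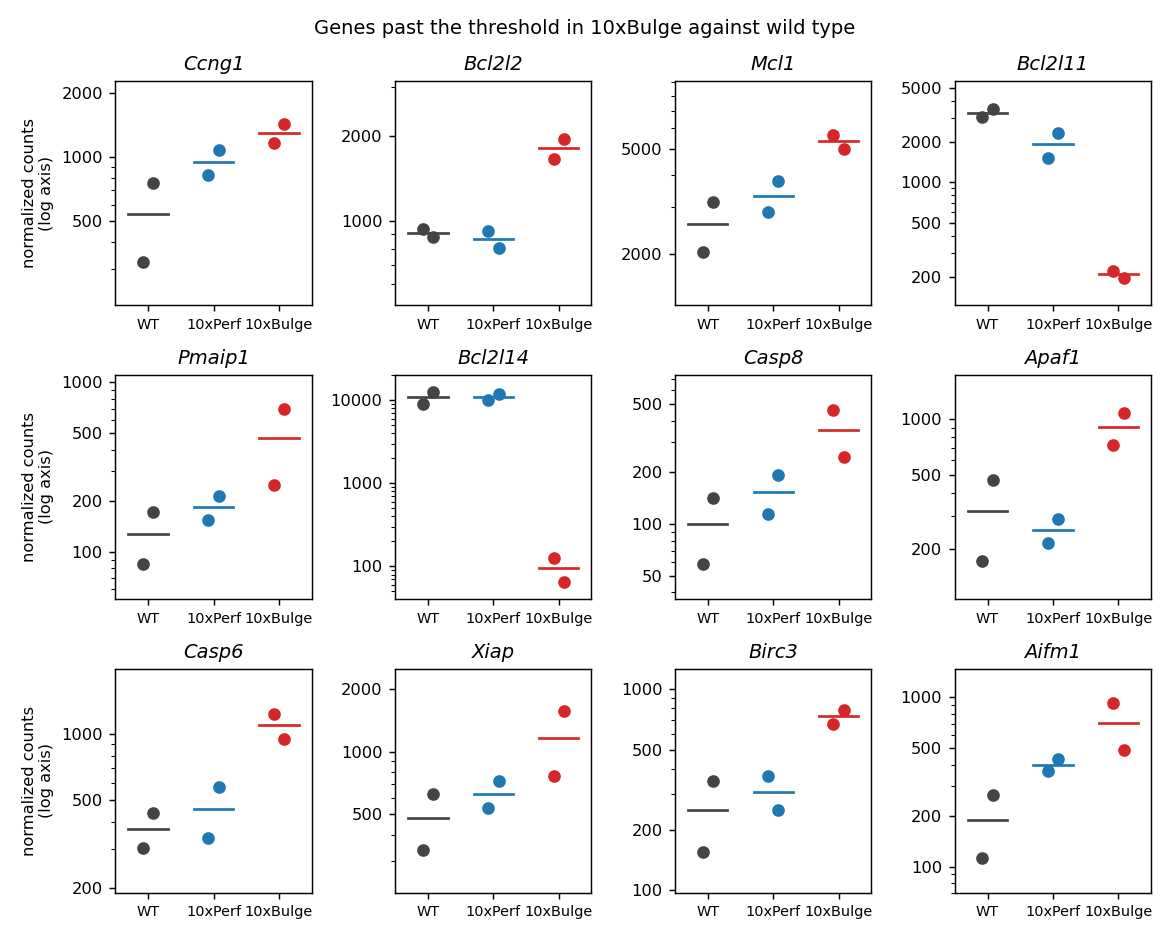
Normalized counts (log axis) of the 12 genes past the threshold in *10xBulge* against wild type, with a point per library and a bar at the mean of each genotype. In *Bcl2l11* and *Bcl2l14* the *10xBulge* points lie far below all others, and in the other panels they lie above.

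In the death receptor branch, *Casp8* rose in *10xBulge*. *Casp8*, the initiator caspase of the branch, had 58.5 and 142 normalized counts for wild type, 115 and 193 for *10xPerf* and 462 and 247 for *10xBulge*. Both *10xBulge* libraries were above the rest (log2 fold change 1.88 against wild type, SE 0.57, limma adjusted p = 0.0400). The *10xPerf* values overlapped those of wild type, and the difference of *10xBulge* from *10xPerf* did not pass (1.18, limma adjusted p = 0.156). *Cflar*, which codes for the caspase 8 inhibitor c-FLIP and lies beside *Casp8* on chromosome 1, had 1330 and 1368 for wild type, 1090 and 1279 for *10xPerf* and 2082 and 2666 for *10xBulge*. It did not pass against wild type (0.80, limma adjusted p = 0.149) but was higher than in *10xPerf* (1.00, SE 0.38, limma adjusted p = 0.0785). *Fas*, the receptor itself, was low, with 4.48 and 12.3 for wild type, 23.5 and 22.4 for *10xPerf* and 17.3 and 25.7 for *10xBulge*. Both lines were above wild type, without passing (in *10xPerf*, log2 fold change 1.48, SE 0.66, limma adjusted p = 0.830). Its ligand gene *Fasl* had 16.3 and 16.6 for wild type, 30.9 and 16.7 for *10xPerf* and 2.71 and 12.2 for *10xBulge*. N5 is below 3 reads for *Fasl*, and no call was made (log2 fold change -1.32 in *10xBulge*, 95% confidence interval -3.04 to 0.40). *Tnfrsf10b*, the mouse TRAIL receptor, had 660 and 432 for wild type, 478 and 453 for *10xPerf* and 266 and 388 for *10xBulge* (log2 fold change -0.73, limma adjusted p = 0.236).

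*Apaf1* and *Casp6* rose in *10xBulge*, and both also rose against *10xPerf*. *Apaf1*, the scaffold of the apoptosome, had 172 and 468 normalized counts for wild type, 214 and 289 for *10xPerf* and 724 and 1083 for *10xBulge*. Both *10xBulge* libraries were above the rest, with a log2 fold change of 1.64 (SE 0.54, limma adjusted p = 0.0520) against wild type and 1.83 (SE 0.54, limma adjusted p = 0.0324) against *10xPerf*. *Casp6*, an executioner caspase, had 304 and 437 for wild type, 337 and 575 for *10xPerf* and 1243 and 953 for *10xBulge*. Its log2 fold change was 1.57 (SE 0.44, limma adjusted p = 0.0285) against wild type and 1.31 (limma adjusted p = 0.0544) against *10xPerf*. *Casp9*, the initiator activated on the apoptosome, had 1265 and 1426 for wild type, 713 and 1079 for *10xPerf* and 1794 and 1723 for *10xBulge*. *Casp9* passed only between the knock-in lines (1.00, limma adjusted p = 0.0872), and its log2 fold change in *10xPerf* against wild type was -0.61 (SE 0.39, limma adjusted p = 0.853).

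Of the inhibitors of apoptosis, which bind caspases or act as ubiquitin ligases, *Xiap* and *Birc3* rose in *10xBulge*. *Xiap*, the direct inhibitor of caspases, had 336 and 630 normalized counts for wild type, 538 and 723 for *10xPerf* and 764 and 1574 for *10xBulge* (log2 fold change 1.25, SE 0.50, limma adjusted p = 0.0985). *Birc3*, a target of NF-kappaB, had 156 and 348 for wild type, 369 and 251 for *10xPerf* and 673 and 788 for *10xBulge* (log2 fold change 1.64, SE 0.49, limma adjusted p = 0.0362). *Birc3* also rose against *10xPerf* (1.26, limma adjusted p = 0.0850), whereas *Xiap* did not pass there (0.81, limma adjusted p = 0.259). *Birc2*, the neighbour of *Birc3* on chromosome 9, had 2353 and 3478 for wild type, 4760 and 4360 for *10xPerf* and 3016 and 6340 for *10xBulge*, and its log2 fold change in *10xPerf* was 0.67 (SE 0.46, limma adjusted p = 0.853). *Birc5*, which codes for survivin and works in cell division, had 2220 and 1636 for wild type, 1774 and 1998 for *10xPerf* and 2060 and 1616 for *10xBulge*. *Diablo*, whose protein is released from mitochondria and displaces the inhibitors from caspases, had 26415 and 16824 for wild type, 13463 and 16794 for *10xPerf* and 25406 and 20241 for *10xBulge*. The *10xBulge* values of *Birc2*, *Birc5* and *Diablo* overlapped those of wild type.

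Of the genes of caspase-independent death at the mitochondrion, *Aifm1* rose in *10xBulge*. *Aifm1*, which codes for apoptosis-inducing factor, had 112 and 266 normalized counts for wild type, 368 and 431 for *10xPerf* and 923 and 491 for *10xBulge*. The genotypes did not overlap and stood in the order wild type, *10xPerf*, *10xBulge*. The log2 fold change was 1.96 in *10xBulge* (SE 0.53, limma adjusted p = 0.0242), the highest of the 36 genes, and 1.20 in *10xPerf* (SE 0.53, limma adjusted p = 0.812). The *10xPerf* value was the other with an unadjusted p under 0.05. Between the lines the difference did not pass (0.76, limma adjusted p = 0.319). *Endog*, a mitochondrial nuclease, had 86.2 and 63.9 for wild type, 45.4 and 81.3 for *10xPerf* and 154 and 99.0 for *10xBulge*, above both others in *10xBulge* without passing (log2 fold change 0.73, limma adjusted p = 0.329).

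**Figure D4:**
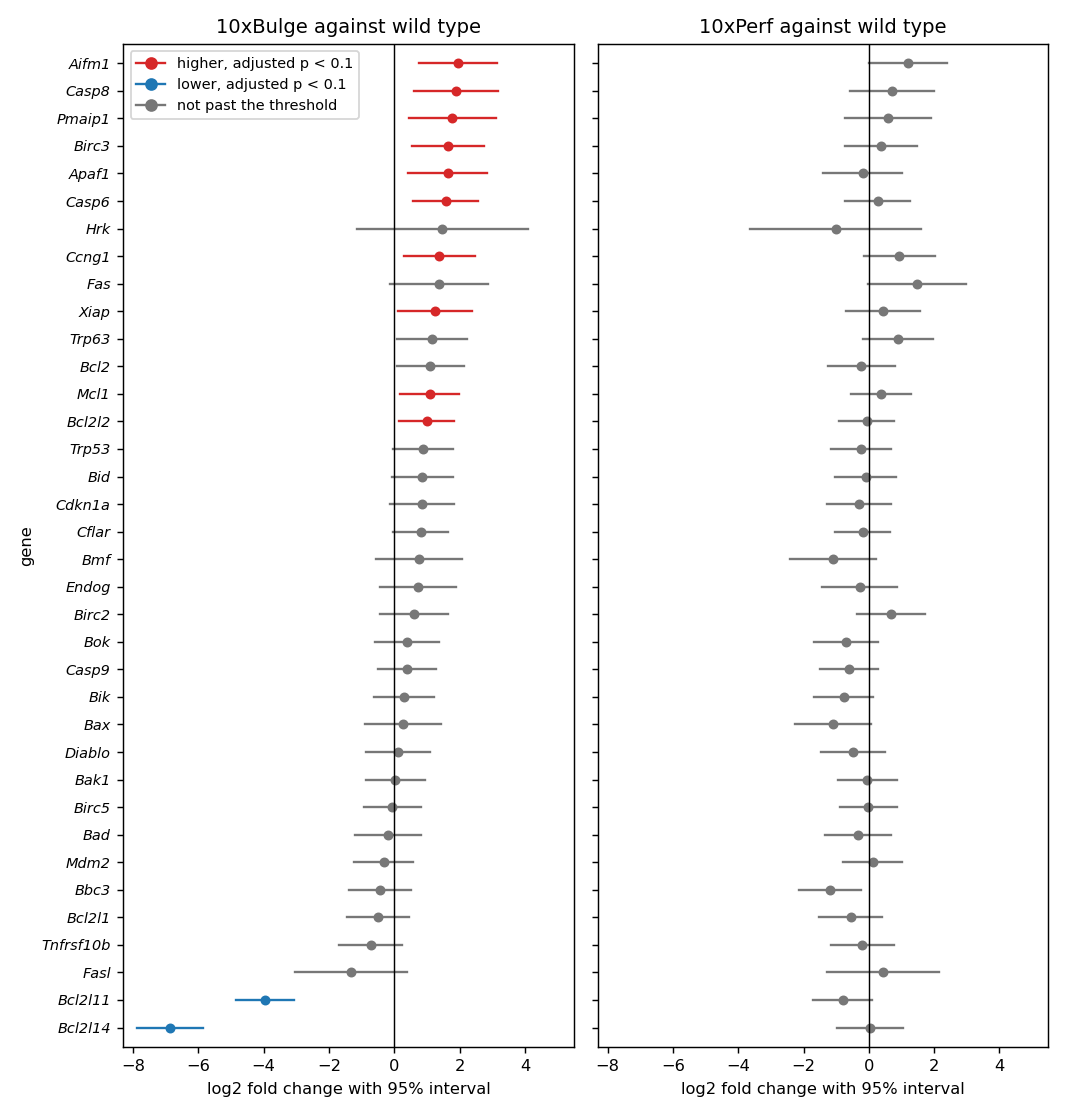
Points give the log2 fold change of each of the 36 genes against wild type and lines its 95% confidence interval, for *10xBulge* (left) and *10xPerf* (right), in the order of the *10xBulge* values. Intervals are wide with 2 libraries per genotype, 12 genes pass the threshold on the left, and 0 on the right.

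In *10xPerf*, the 36 genes had a median log2 fold change of -0.14 against wild type, beside 0.018 over all genes tested. Both *10xPerf* libraries were above both of wild type for 6 genes (16.7%, against 20.2% of all genes tested) and below both for 10 (27.8%, against 19.8%). Between the knock-in lines, 13 of the 36 genes were higher in *10xBulge* (36.1%, against 12.9% of all genes tested) and 2 were lower (5.56%, against 24.1%). The 13 were *Trp53*, *Cdkn1a*, *Bax*, *Bok*, *Bcl2*, *Bcl2l2*, *Bik*, *Bmf*, *Cflar*, *Apaf1*, *Casp9*, *Casp6* and *Birc3*. *Bcl2l2*, *Apaf1*, *Casp6* and *Birc3* are the genes of both lists of higher genes, which share the *10xBulge* libraries. Without the *10xPerf* library N3, which was the lowest library for 14 of the 36 genes, 0 of the 36 genes were higher in *10xBulge* than in *10xPerf*, and over all genes the number fell from 3077 to 418 of 23782.

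Of 77 other genes of the pathway, 71 passed the filter, and in *10xBulge* 17 of these rose and 5 fell. These are 23.9% and 7.04%, beside 11.4% and 23.0% of all genes tested, and the shares in the smaller lists below rest on few genes. The median log2 fold change of the 71 genes was 0.73. In *10xPerf* 0 of the 71 passed the threshold (limma), with 4 at an unadjusted p under 0.05. Among 9 regulators of p53 that were tested, *Cdkn2a*, which codes for inhibitors of the cell cycle and of MDM2, rose (141 and 94.2 normalized counts for wild type, 394 and 381 for *10xBulge*, log2 fold change 1.74, limma adjusted p = 0.0248). *Ppm1d*, a phosphatase that turns p53 signalling off, fell (7900 and 9490, then 3141 and 1958, log2 fold change -1.80, limma adjusted p = 0.0108). Other targets of p53 numbered 24, of which 8 rose and 1 fell. *Eda2r*, a receptor of the TNF family, had 6.37 and 12.8 for wild type, 39.5 and 53.2 for *10xPerf* and 77.5 and 139 for *10xBulge* (log2 fold change 3.38, limma adjusted p = 0.00229). *Sesn1*, a stress-induced inhibitor of mTORC1 signalling, rose by a log2 fold change of 2.09 (limma adjusted p = 0.0113) and *Tigar*, a regulator of glycolysis, by 1.44 (limma adjusted p = 0.0274). *Polk*, a DNA polymerase that copies past lesions, fell (log2 fold change -1.29, limma adjusted p = 0.0482).

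Further genes of the BCL2 family and mitochondria numbered 14 tested, of which 3 rose and 0 fell. *Vdac1*, a channel of the outer mitochondrial membrane, rose by 1.58 (limma adjusted p = 0.0229) and *Cycs*, the somatic cytochrome c, by 1.33 (limma adjusted p = 0.0361) on the log2 scale. *Bcl2a1b*, one of several near-identical copies between which reads may be split, also passed, and was listed at 0 in both wild-type libraries, 2.08 and 4.94 in *10xPerf* and 11.8 and 25.0 in *10xBulge*. Among 13 further caspases and executioners 2 rose and 2 fell. *Casp12*, a caspase of the endoplasmic reticulum, had 14.4 and 20.6 normalized counts for wild type, 23.3 and 27.9 for *10xPerf* and 57.3 and 42.7 for *10xBulge* (log2 fold change 1.47, limma adjusted p = 0.0779). *Gsdmd*, which codes for a pore protein of pyroptosis, fell (log2 fold change -2.28, limma adjusted p = 0.00626), as did *Xkr8*, a scramblase that exposes phosphatidylserine on dying cells (log2 fold change -1.63, limma adjusted p = 0.0161). Of 11 other death receptor genes 3 rose and 1 fell. *Fadd*, the adaptor between FAS and caspase 8, rose by 1.26 (limma adjusted p = 0.0526), *Tnfrsf1a* by 1.13 (limma adjusted p = 0.0575) and *Tnfrsf21* by 1.14 (limma adjusted p = 0.0811). *Traf1*, an adaptor of TNF receptors, had 328 and 246 normalized counts for wild type, 214 and 331 for *10xPerf* and 26.8 and 35.6 for *10xBulge* (log2 fold change -3.16, limma adjusted p = 0.000800).

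**Figure D5:**
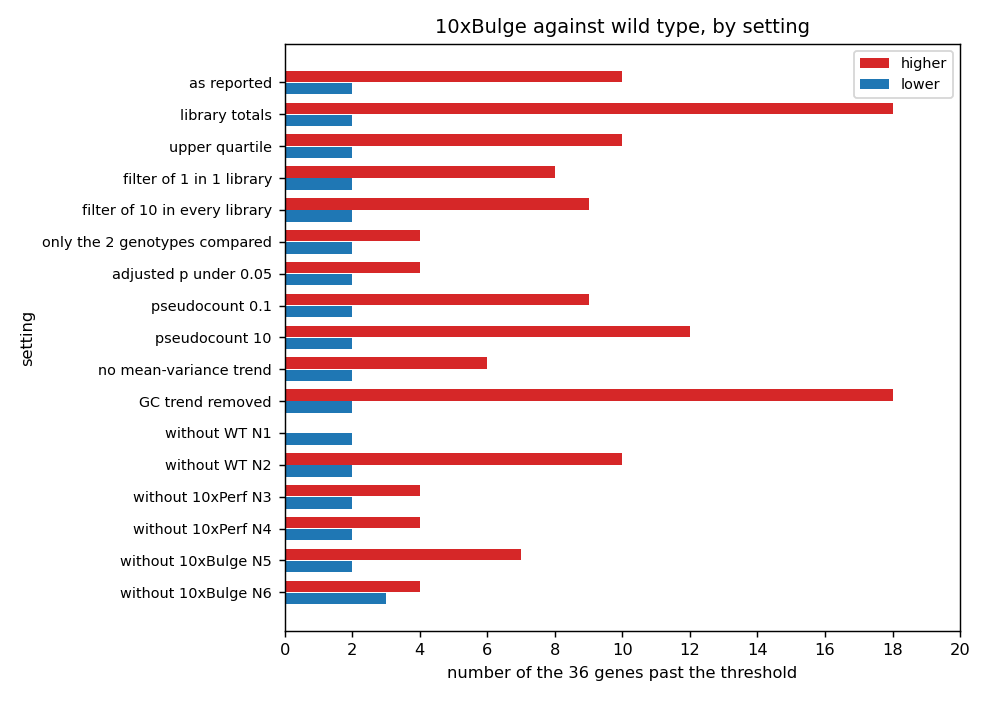
Bars give the number of the 36 genes that were higher (red) or lower (blue) in *10xBulge* than in wild type under each setting. Lower genes number 2 or 3 in all settings, and higher genes run from 0 without N1 to 18.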

How the data were processed

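Total RNA of adult testes was sequenced by the authors as stranded single reads. They assigned the reads with salmon, with its GC correction, to Ensembl transcripts of GRCm39. The deposited values are normalized counts from DESeq2, a signal for each gene in each library, and were not converted back to reads. The deposited columns of the authors' own comparisons (log2 fold changes and adjusted p-values) were not used, nor were the 20 MILI and MIWI immunoprecipitation libraries.

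Genes that reached 10 normalized counts in 2 or more libraries entered a limma fit (limma 3.58.1, R 4.3.3) of log2(value + 1) over all 6 libraries, in which each genotype has a term and the variance follows a trend with the mean. P-values are two-sided and were adjusted by the Benjamini-Hochberg method over all 23782 genes tested in each of 3 comparisons, with a threshold of 0.1. The floor of 3 reads accounts for counting error alone. The genes and lists were chosen with earlier results of these data known. Values are given for all 36 genes, and full statistics for those past the threshold or largest in their role group. Up to 3 genes per direction are named from each other list. The values of 1 of these genes are not reported here. Promoter windows and coordinates come from RefSeq and GENCODE on GRCm38, and GC content from the longest GENCODE transcript, which 99.3% of the tested genes have. Figures were made with matplotlib 3.10.9 (Python 3.11.15). Alternatives were other scalings, filters, pseudocounts, thresholds and fits, removal of the GC trend, and leaving out each library.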

Additional observations from a re-analysis of the deposited data

How the results depend on the processing

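Against wild type, the number of genes higher in *10xBulge* was 18 with library totals, 18 with the GC trend removed, 4 with only the 2 genotypes compared, 4 at an adjusted p under 0.05, 6 without the mean-variance trend, and 0 to 10 with a library left out (0 without N1). With only the 2 genotypes compared, and likewise at an adjusted p under 0.05, the 4 were *Casp8*, *Casp6*, *Birc3* and *Aifm1*. Over all genes the counts of higher genes were 1512 with only the 2 genotypes compared, 1370 at an adjusted p under 0.05 and 2149 without the mean-variance trend, against 2712. Against *10xPerf* it was 2 at an adjusted p under 0.05, 5 without the trend, and 0 to 9 with a library left out (0 without N3). Over all genes 1725 and 2634 were higher under the first pair of these settings, against 3077. Without N6, 3 genes were lower than in wild type, *Fasl* being added. Over all genes, the median log2 fold change became 0.35 with library totals in *10xBulge* against wild type, 0.17 against *10xPerf* and 0.15 in *10xPerf* against wild type. The split over all genes in *10xBulge* against wild type, 2712 higher and 5466 lower, became 5777 and 4792 with library totals, and 4736 and 5738 with the GC trend removed.

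No call changed sign. Log2 fold changes of genes without a call did: with library totals *Mdm2* 0.056, *Bad* 0.20 and *Birc5* 0.32, and with the GC trend removed *Bbc3* 0.0041 and *Birc5* 0.015. With a library left out, *Bad* ran from -0.58 to 0.21, *Birc5* from -0.28 to 0.16, *Mdm2* from -0.67 to 0.013, *Bax* from -0.44 to 0.95, *Bak1* from -0.26 to 0.30, *Bmf* from -0.11 to 1.62 and *Diablo* from -0.22 to 0.43. The causes were not tested. A filter of 10 in every library left *Fas*, *Fasl* and *Hrk* untested. Replicate pairs of the 36 genes differed by a median of 0.37 to 0.54 on the log2 scale, so small differences could not be detected with 2 libraries per genotype.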
